A study of Rattus norvegicus with 2 samples.

Results

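Hox cluster genes were taken as every annotated gene named Hoxa, Hoxb, Hoxc or Hoxd followed only by a number from 1 to 13, which gave 39 members among 23373 rat genes and the same 39 names among 25906 mouse genes. They were followed in single cells of skeletal muscle from 1 mouse-rat chimera and 1 control Sprague-Dawley (SD) rat. The chimera came from an SD rat morula injected with mouse induced pluripotent stem cells (iPSCs). These iPSCs had been reprogrammed from male embryonic fibroblasts of Dmd mdx; Pax7-nGFP mice, which lack functional dystrophin and carry a nuclear GFP reporter driven by the muscle stem cell gene Pax7, and their Dmd mutation had been corrected by CRISPR/Cas9 exon skipping. The rat host carried no deletion of its own muscle stem cells. Muscle from across the body of each animal was pooled, digested with collagenase, sorted for live cells with Calcein Violet and run on a 10x Genomics 3′ kit. A single library stood behind each animal, so differences between the chimera and the SD rat have no replicate check. The chimera was also counted on rat and mouse genes together, and the SD rat on rat genes alone. Differences between animals, libraries, these gene sets, and rat cells with and without mouse cells beside them cannot be told apart. Within the chimera, mouse and rat cells came from the same animal and library. Their levels were counted on different genes, so species, iPSC origin, and gene annotation or read assignment cannot be told apart in that comparison.

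Hox genes encode homeodomain transcription factors that are laid out in 4 clusters, Hoxa to Hoxd, each numbered from its 3′ end. In the embryo, genes at the 3′ end are switched on early and towards the head, and genes at the 5′ end later and towards the tail and the tips of the limbs, so that the combination used by a cell records its position along the body. Connective tissue, muscle and vessel cells of adult animals are known to keep part of this code. Members are called here anterior for groups 1 to 3, middle for groups 4 to 8 and posterior for groups 9 to 13.

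The chimera library held 13299 barcodes with 118872850 unique molecular identifiers (UMIs, each a counted transcript) and the SD rat library 10117 barcodes with 70957559 UMIs. After filters, 11730 chimera cells with a median of 7848 UMIs and 8816 SD rat cells with a median of 6276 UMIs remained, and 36 barcode sequences occurred in both libraries. Chimera cells were called mouse with at least 80% of UMIs on mouse genes (1847 cells), rat with at most 20% (8230 cells), and mixed otherwise (1653 cells, not used). At most 10% of UMIs lay on mouse genes in 498 of 2593 fibro-adipogenic progenitor-like, 224 of 445 myogenic progenitor-like and 52 of 721 endothelial-like rat cells of the chimera. Levels are UMI counts scaled to 1000000 UMIs on genes of the cell's own species (CPM), and all intervals are exact 95% intervals that cover counting error only. UMIs were counted at the 3′ end and not divided by gene length, so the order of members within a cell class is an order of UMIs, and reads shared by overlapping neighbours were not told apart.

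Cell classes were rebuilt by clustering without the Hox genes and named from marker genes. The fibro-adipogenic progenitor-like clusters (FAP-like, the connective tissue cells between fibres) had 12 to 14 raised markers in each population, and they held 2593 chimera rat, 127 chimera mouse and 3203 SD rat cells. Endothelial-like clusters (EC-like) had 14 raised markers in chimera rat, 12 to 15 in chimera mouse and 9 to 14 in SD rat cells, and held 721, 1075 and 1570 cells. Myogenic progenitor-like clusters (MP-like, muscle stem cells and their progeny) had 10 and 5 raised markers in chimera rat, 12 in chimera mouse and 11 and 4 in SD rat cells, and held 445, 46 and 358 cells. The differentiation factor Myog was among the leading genes of the smaller of each rat pair and of the mouse cluster, and hemoglobin genes were among the leading genes of the larger chimera rat MP-like cluster (354 cells). Lymphatic endothelial-like (LyEC-like) cells, 82 in the chimera rat and 110 in the SD rat population, and pericyte-like cells, 267 and 384, were named in rat cells alone. The cells of the mouse cluster named for cell cycle genes had 15 raised EC markers, whereas the cycling clusters of the chimera rat and SD rat had 11 and 12 raised FAP markers.

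Promoters are shown for 6 of the members with a RefSeq entry, those of Hoxa3, among the highest members of EC-like cells, Hoxa9, the highest of pericyte-like cells, and the neighbours Hoxd4, Hoxd8, Hoxd9 and Hoxd10, among the highest of LyEC-like cells. Each runs 5′ to 3′ on the strand of the gene, from 250 bases before to 50 bases after its start in the rat build GRCr8, which is not the build of the counts. Entries existed for 20 of the 39 members. Capitals mark matches, on either strand, to AGGTCA, the half-site of retinoic acid receptors, which are known regulators of Hox clusters in the embryo.
Hoxa3 (chr4:82643782-82644081, minus strand): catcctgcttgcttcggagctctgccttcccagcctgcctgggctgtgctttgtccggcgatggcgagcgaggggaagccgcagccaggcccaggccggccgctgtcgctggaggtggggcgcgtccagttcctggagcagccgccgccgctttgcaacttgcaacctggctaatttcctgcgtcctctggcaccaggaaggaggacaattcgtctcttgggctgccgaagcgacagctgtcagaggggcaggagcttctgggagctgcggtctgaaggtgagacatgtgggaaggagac
Hoxa9 (chr4:82656999-82657298, minus strand): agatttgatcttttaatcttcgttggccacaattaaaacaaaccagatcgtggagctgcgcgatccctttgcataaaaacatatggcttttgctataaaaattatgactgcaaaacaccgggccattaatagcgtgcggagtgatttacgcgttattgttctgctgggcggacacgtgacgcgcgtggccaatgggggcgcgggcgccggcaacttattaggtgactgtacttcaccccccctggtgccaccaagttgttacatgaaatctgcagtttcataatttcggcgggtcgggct
Hoxd4 (chr3:80021636-80021935, plus strand): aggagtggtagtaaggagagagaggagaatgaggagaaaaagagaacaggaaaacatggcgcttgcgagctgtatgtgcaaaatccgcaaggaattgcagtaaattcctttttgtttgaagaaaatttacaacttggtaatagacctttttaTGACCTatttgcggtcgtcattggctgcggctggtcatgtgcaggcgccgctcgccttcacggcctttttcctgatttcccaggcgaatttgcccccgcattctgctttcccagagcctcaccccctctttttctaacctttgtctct
Hoxd8 (chr3:80014973-80015272, plus strand): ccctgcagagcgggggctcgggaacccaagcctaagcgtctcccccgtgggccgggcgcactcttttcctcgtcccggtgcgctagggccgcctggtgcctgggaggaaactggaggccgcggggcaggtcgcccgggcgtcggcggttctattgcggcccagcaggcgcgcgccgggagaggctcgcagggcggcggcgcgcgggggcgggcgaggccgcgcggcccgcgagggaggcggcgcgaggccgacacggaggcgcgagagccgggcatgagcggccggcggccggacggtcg
Hoxd9 (chr3:80007756-80008055, plus strand): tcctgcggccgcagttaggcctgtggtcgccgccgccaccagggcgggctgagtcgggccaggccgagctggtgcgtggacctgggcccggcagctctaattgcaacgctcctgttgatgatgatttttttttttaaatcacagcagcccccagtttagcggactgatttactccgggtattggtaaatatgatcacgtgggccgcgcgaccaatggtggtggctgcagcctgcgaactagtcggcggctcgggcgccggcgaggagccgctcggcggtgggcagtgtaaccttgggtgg
Hoxd10 (chr3:80001697-80001996, plus strand): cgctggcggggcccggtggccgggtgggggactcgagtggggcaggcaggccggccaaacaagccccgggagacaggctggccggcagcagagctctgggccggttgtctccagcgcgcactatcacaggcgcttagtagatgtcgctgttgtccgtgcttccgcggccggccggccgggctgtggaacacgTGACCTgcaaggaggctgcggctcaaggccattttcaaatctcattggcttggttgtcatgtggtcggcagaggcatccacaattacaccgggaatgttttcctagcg
The Hoxd4 and Hoxd10 windows held 1 AGGTCA match each, the others none. Over all 33469 promoter windows of this length 16.2% held the letters, and 3 of the 21 Hox windows did (Hoxd10, Hoxd4 and Hoxc4). TGATNNAT, a motif of Hox and Pbx protein pairs, occurred in 9.10% of all windows and in 4 of the 21 (Hoxd11, Hoxa2, Hoxa7 and Hoxb1). CCGGAA, the core of ETS factor sites, occurred in 15% of all windows and in 4 of the 21, those of Hoxd12 and Hoxd3 and both of Hoxa10. GC content ran from 47.3% (Hoxd4) to 79.0% (Hoxd8) among the 6 windows printed. These matches describe letters in a window, and binding was not measured.

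Hox UMIs were few but spread over most members. Chimera rat cells held 6012 Hox UMIs, chimera mouse cells 2729 and SD rat cells 7198, and 28, 24 and 27 members respectively had at least 20. A further 6, 10 and 7 members had fewer, and the rest had none. Hoxb1, Hoxb13, Hoxc12, Hoxd1 and Hoxd12, which belong to the extremes of the code or to the hindbrain, had no UMI in any population. The members counted most often were Hoxa10, which patterns the lumbar region and proximal limb, with 858, 42 and 926 UMIs in chimera rat, chimera mouse and SD rat cells, and Hoxd8 with 811, 162 and 887. Hoxb4 was instead counted most often in the mouse, with 193 UMIs in chimera rat, 398 in chimera mouse and 178 in SD rat cells. Hoxd13, a gene of the digits, had 20, 4 and 17 UMIs, Hoxd11 had 4, 2 and 25, and Hoxc13 had 2, 1 and 1.

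The level of the 39 genes together differed between classes more than 10-fold. In chimera rat cells the sum was 414 CPM (368 to 464) in LyEC-like, 190 CPM in pericyte-like, 129 CPM (118 to 141) in EC-like, 104 CPM (99.8 to 107) in FAP-like and 79.4 CPM (70.3 to 89.2) in MP-like cells. T or NK-like, B-like and myeloid-like cells, in which Hox UMIs may be free RNA from other cells (not tested), held 5.41, 8.88 and 8.23 CPM. In the SD rat the corresponding sums were 534 CPM (484 to 589) in LyEC-like, 212 CPM in pericyte-like, 166 CPM (155 to 178) in EC-like, 87.4 CPM (84.3 to 90.4) in FAP-like and 142 CPM (127 to 158) in MP-like cells, and the immune-like classes had 28.4, 26.9 and 18.0 CPM. The immune-like level was thus higher in the SD rat than in the chimera, where mouse T or NK-like, B-like and myeloid-like cells had 6.71, 1.70 and 5.33 CPM. Mouse EC-like cells held 265 CPM (253 to 277), mouse MP-like cells 154 CPM (120 to 196) and mouse FAP-like cells 146 CPM (129 to 165).

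The share of cells with a Hox UMI depended on depth. At least 1 Hox UMI was found in 81.7% of chimera rat LyEC-like cells, 58.0% of FAP-like, 38.0% of EC-like and 37.3% of MP-like cells, against 3.57% of T or NK-like cells (median 6904 UMIs, FAP-like 10647, EC-like 3448). With every cell thinned to 1000 UMIs, which left out 64 EC-like, 21 MP-like, 6 FAP-like and 2 LyEC-like cells, the shares in the same order were 36.2%, 9.74%, 13.7% and 6.37%, and 0.714% in T or NK-like cells, so that EC-like cells then stood above FAP-like cells, as in CPM. Mouse EC-like cells gave 64.7% unthinned and 24.9% thinned (74 left out), and SD rat EC-like cells 29.8% and 16.0% (446 left out).

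**Figure D1:**
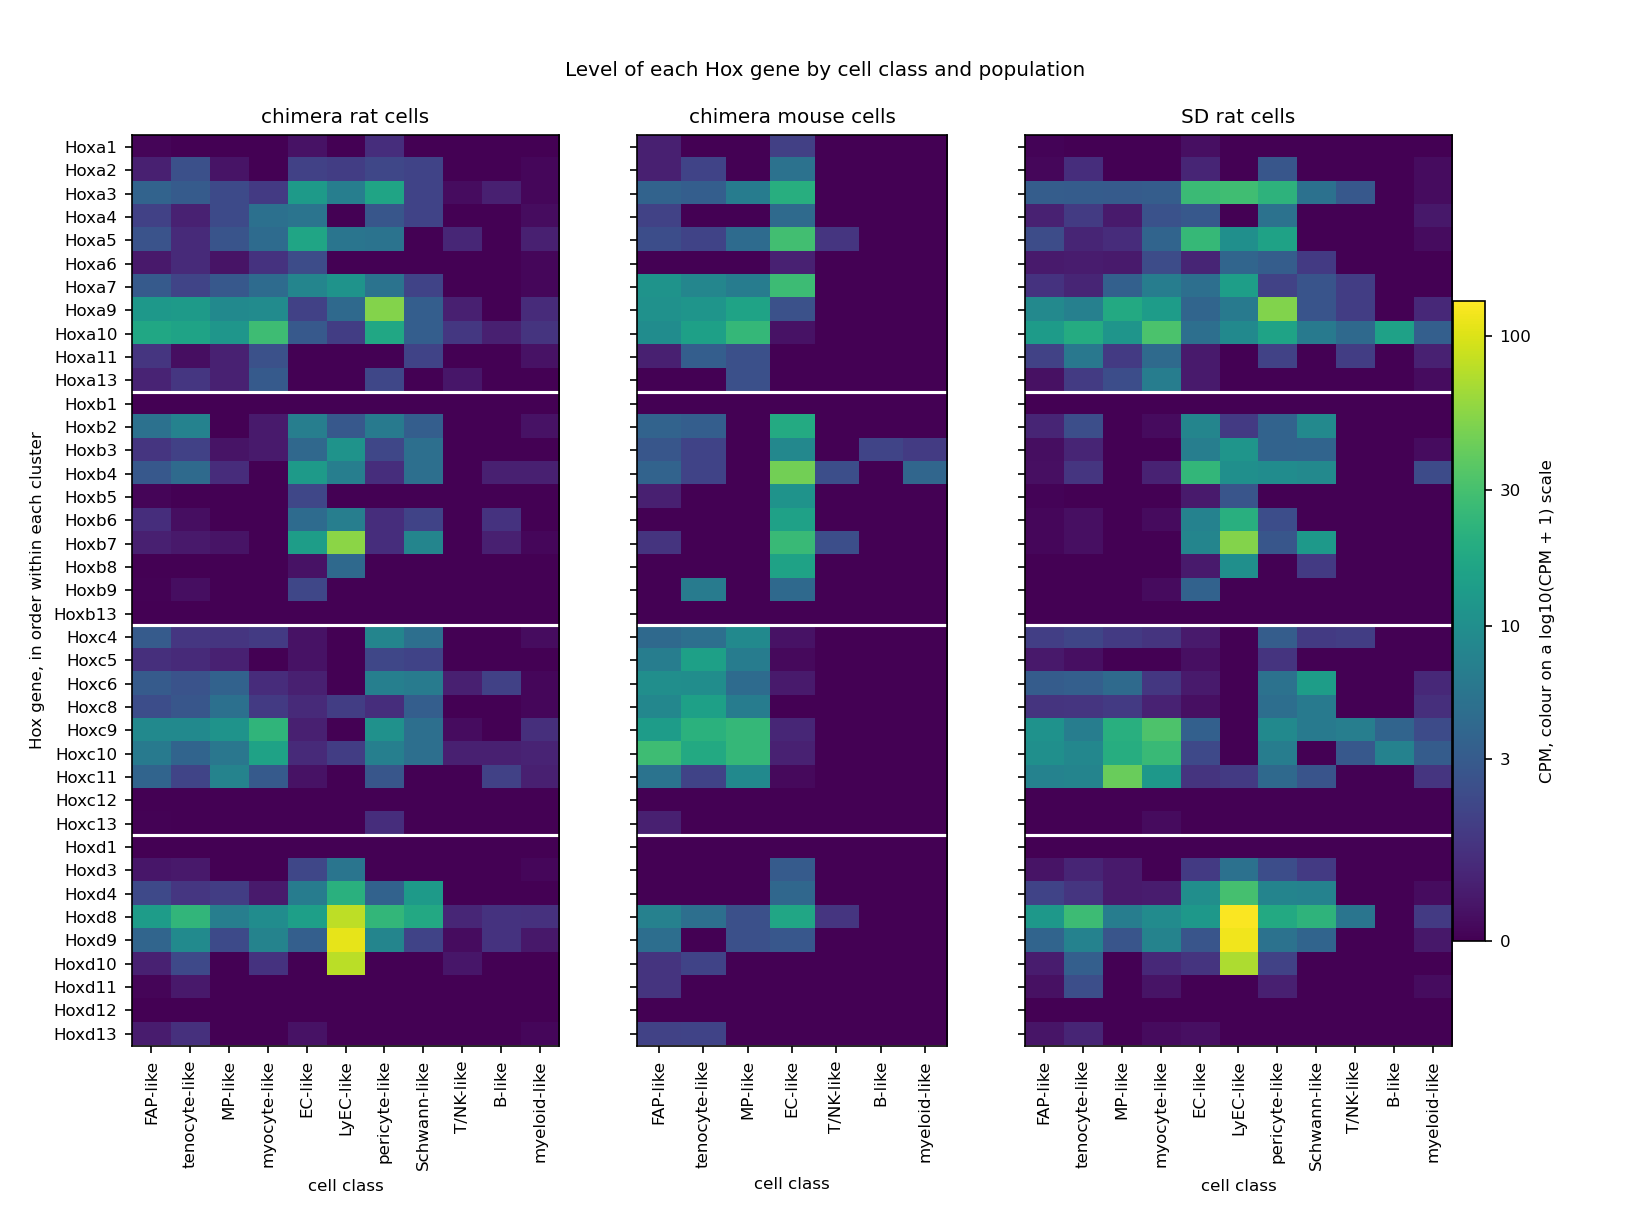
Heatmaps of the level of each Hox gene (rows, in order within each cluster) in each cell class (columns) for chimera rat, chimera mouse and SD rat cells, with colour giving CPM on a log10(CPM + 1) scale. The bright block of Hoxd8, Hoxd9 and Hoxd10 lies in LyEC-like cells. EC-like cells are bright at Hoxa3, Hoxa5, Hoxb4 and Hoxb7, with Hoxa6 low between them. FAP-like, MP-like and myocyte-like cells are bright at Hoxa9, Hoxa10 and Hoxc9 to Hoxc11. Mouse myocyte-like and Schwann-like cells (13 and 8 Hox UMIs) are not drawn.

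FAP-like and tenocyte-like cells are both connective tissue. Their posterior shares ran from 50.8% (46.7 to 54.9) in chimera rat tenocyte-like cells to 66.4% (64.7 to 68.1) in SD rat FAP-like cells. In mouse FAP-like cells the share was 52.7% (46.6 to 58.8). HoxA and HoxC each stood above HoxD in FAP-like cells of every population. HoxD took more Hox UMIs than HoxC in rat tenocyte-like cells, 33.3% against 19.1% in the chimera and 36.1% against 25.3% in the SD rat. Mouse tenocyte-like cells went the other way, with 5.43% against 56.5%. The chimera shares count genes of the cell's own species and are not like for like between clusters. Over all chimera rat cells, 39.3% of Hoxc9 and 33.6% of Hoxc10 UMIs lay on the mouse gene, against 6.35% for Hoxd8. Tenocyte-like cluster shares with rat and mouse counts added were not computed, so the part of read assignment in the chimera contrasts was not tested. The 5 highest members of chimera rat FAP-like cells were Hoxa10 (17.3 CPM), Hoxd8 (13.8), Hoxa9 (12.4), Hoxc9 (9.14) and Hoxc10 (6.35), and those of SD rat FAP-like cells were the same names at 13.5, 12.5, 8.88, 11 and 10.3 CPM. Hoxa10 was found in 15.7% of chimera rat and 12.6% of SD rat FAP-like cells (1.58% and 1.19% after thinning) against 0.856% and 3.16% of T or NK-like cells. Mouse FAP-like cells were led by Hoxc10, a hindlimb and lumbar gene, at 27.8 CPM, followed by Hoxc9 (13.9), Hoxa7 (11.2), Hoxa9 (10.7) and Hoxc6 (10.2). Tenocyte-like cells of both rat populations were led by Hoxd8, at 23.9 CPM in the chimera and 27.1 CPM in the SD rat, then Hoxa10 at 16.0 and 19.2 CPM. The 40 mouse tenocyte-like cells were led by Hoxc9 (21.6 CPM) and Hoxc10 (18.2 CPM).

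Outside the immune-like classes, MP-like and myocyte-like cells had the highest posterior shares of the rat populations. Posterior members took 61.9% (56.0 to 67.6) of Hox UMIs in chimera rat and 83.7% (79.2 to 87.5) in SD rat MP-like cells, and 75.2% and 81.1% in myocyte-like cells. Cycling cells followed, at 55.6% (48.2 to 62.9) in the chimera rat and 72.9% (66.9 to 78.3) in the SD rat. The chimera rat intervals of MP-like and cycling cells overlapped. Myocyte-like cells had Hoxa10 at 28.0 and 31.6 CPM, Hoxc9 at 23.1 and 32.8 CPM and Hoxc10 at 15.5 and 26.2 CPM in chimera rat and SD rat. HoxB members were rare in rat muscle cells. Myocyte-like cells had HoxB at 0.847 CPM in the chimera rat and 1.06 CPM in the SD rat. The 30 chimera mouse myocyte-like cells had 30.9 CPM (6.37 to 90.3), on 3 HoxB UMIs. MP-like cells had 5 HoxB UMIs in the chimera rat (1.41 CPM), 0 in the chimera mouse (the limit of 3 counts allows 6.81 CPM) and 0 in the SD rat (which allows 1.31 CPM).

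EC-like cells of vessels carried an anterior and middle code with HoxA and HoxB members and nearly no HoxC. Posterior members took 8.91% (6.55 to 11.8) of Hox UMIs in chimera rat, 4.15% (3.31 to 5.14) in chimera mouse and 14.3% (11.9 to 16.9) in SD rat EC-like cells. HoxC genes together reached 3.40, 2.20 and 7.77 CPM, which can be set against 1.22, 0 and 11.3 CPM in T or NK-like cells of the same populations. The mouse 0 allows 3.36 CPM, above the mouse EC-like level, and the SD rat value rests on 8 UMIs (4.90 to 22.3 CPM). The highest members in chimera rat EC-like cells were Hoxa5 (16.5 CPM), Hoxd8 (14.6), Hoxb7 (14.1), Hoxa3 (13.3) and Hoxb4 (13.3), and SD rat EC-like cells had Hoxa3 (26.5), Hoxa5 (25), Hoxb4 (24.4), Hoxd8 (12.5) and Hoxd4 (10.1). Hoxa3 is known for pharyngeal and vascular patterning, Hoxa5 for patterning of the neck and lung, and Hoxb4 for blood stem cells. Mouse EC-like cells had Hoxb4 at 45.4 CPM, Hoxa5 at 28.9, Hoxa7 at 27.4, Hoxb7 at 26.1 and Hoxa3 at 20.1.

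LyEC-like cells of lymphatic vessels shared Hoxb7 with EC-like cells but were dominated by a run of HoxD neighbours. Hoxd9 stood at 108 CPM in the chimera rat and 118 CPM in the SD rat, Hoxd8 at 79.4 and 127 CPM, Hoxd10 at 78.0 and 71.4 CPM, Hoxb7 at 55.3 and 51.9 CPM and Hoxd4 at 21.3 and 29.8 CPM. HoxD took 70.5% and 65.8% of the Hox UMIs there, against 20.4% and 22.1% in FAP-like cells, and Hoxd10 had under 1 CPM in FAP-like cells of both rat populations. In the chimera, 1 LyEC-like cell held 38 of the 292 Hox UMIs and 18 of the 76 Hoxd9 UMIs.

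Pericyte-like cells were led by Hoxa9 at nearly the same level in both animals, 51.6 CPM in the chimera rat and 51.2 CPM in the SD rat. Hoxd8 (24.4 and 18.1 CPM), Hoxa10 (17.2 and 16.0 CPM) and Hoxa3 (16.3 and 22.4 CPM) followed. Pericyte-like cells thus joined Hoxa3, high in EC-like cells, with Hoxa9 and Hoxa10, high in FAP-like cells. Schwann-like cells, 59 Hox UMIs in the chimera rat and 94 in the SD rat, had Hoxd8 at 18.1 and 23.0 CPM, and their posterior shares were 20.3% and 18.1%.

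**Figure D2:**
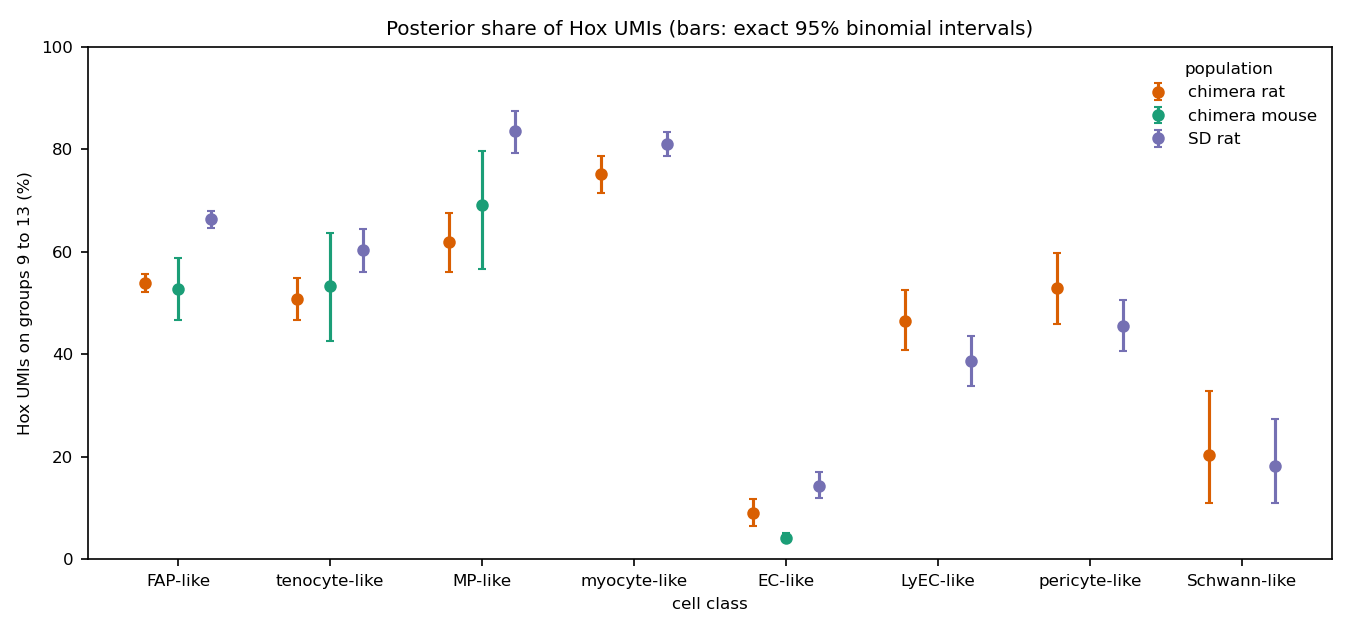
Share of Hox UMIs on the posterior groups 9 to 13 (y axis, percent) in each cell class (x axis) for chimera rat, chimera mouse and SD rat cells, with exact 95% binomial intervals as bars. EC-like cells lie at 4.15% to 14.3%, Schwann-like cells near 20%, and FAP-like, tenocyte-like, MP-like and myocyte-like cells above 50%.

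The contrast between EC-like and FAP-like cells was compared within each population, where both classes came from the same library. A member is called past 2-fold when its level differed at least 2-fold with an exact interval that left out 1, given at least 20 UMIs over both classes. In chimera rat cells 9 of 23 members tested were higher in EC-like and 7 lower, with 20.8% and 15.2% of all 12964 genes tested past 2-fold in these directions. In mouse cells 14 of 22 were higher and 5 lower, beside 18.3% and 17.7% of 11671 genes, and in SD rat cells 10 of 22 were higher and 6 lower, beside 23.4% and 15.5% of 13276 genes. Past 2-fold higher in all 3 populations were 8 of the 15 members higher in any, namely Hoxa3, Hoxa5, Hoxa7, Hoxb3, Hoxb4, Hoxb6, Hoxb7 and Hoxd4, and lower in all 3 were 5 of 7, namely Hoxa9, Hoxa10, Hoxc6, Hoxc9 and Hoxc10. The matching share of all genes was not computed, so whether members recurred more than other genes was not tested. The median log2 ratio of the tested members was 0.08, 1.43 and 0.65 in the 3 populations, and that of all genes 0.20, 0.13 and 0.23.

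Among middle members, Hoxb7 was at 14.1 CPM in EC-like against 0.523 CPM in FAP-like cells of the chimera rat, 26.1 against 1.07 CPM in mouse and 8.2 against 0.0825 CPM in SD rat cells, log2 ratios of 4.75, 4.61 and 6.63. Hoxb4 was at 13.3 against 2.83 CPM, 45.4 against 3.75 CPM and 24.4 against 0.220 CPM (log2 ratios 2.24, 3.60 and 6.79). The spread of the Hoxb4 ratio lay largely in the FAP-like cells, whose level differed between the 2 rat populations. Hoxa5 was at 16.5 against 2.51, 28.9 against 2.14 and 25 against 2.09 CPM, log2 ratios of 2.71, 3.75 and 3.58. In mouse FAP-like cells Hoxb6 and Hoxd4 had no UMI, so that their EC-like levels were at least 9.42-fold and at least 2.57-fold higher.

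Of the posterior members, Hoxa10 was at 2.88 CPM in EC-like against 17.3 CPM in FAP-like cells of the chimera rat, 0.275 against 9.64 CPM in mouse and 4.96 against 13.5 CPM in SD rat cells. Hoxc10 was at 0.785 against 6.35, 0.551 against 27.8 and 1.94 against 10.3 CPM, log2 ratios of -3.02, -5.66 and -2.41. The SD rat EC-like levels lay close to those of immune-like cells of that library, with Hoxa10 at 4.96 CPM (3.15 to 7.44) beside 4.25 CPM (0.877 to 12.4) in T or NK-like and 3.34 CPM in myeloid-like cells. Hoxd8 was nearly level between the classes in rat cells, at 14.6 against 13.8 CPM in the chimera and 12.5 CPM in both classes of the SD rat. The posterior share of EC-like less that of FAP-like cells was -45.0 points (-48.0 to -41.6) in chimera rat, -48.6 points (-54.7 to -42.4) in mouse and -52.1 points (-55.1 to -49.0) in SD rat cells.

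**Figure D3:**
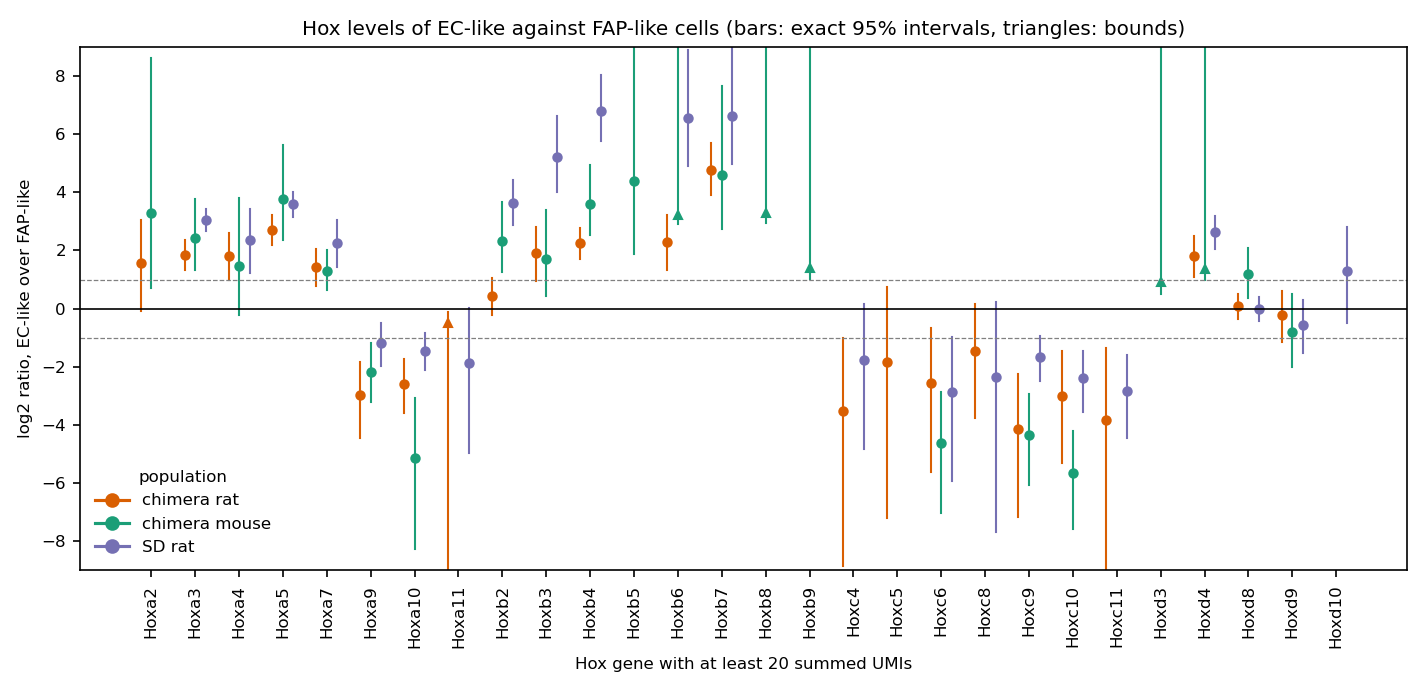
Log2 ratio of the EC-like over the FAP-like level (y axis, cut at 9 in each direction) for each Hox gene with at least 20 summed UMIs (x axis), in chimera rat, chimera mouse and SD rat cells, with exact 95% intervals as bars and triangles for bounds against 0 UMIs. The points of Hoxa3 to Hoxa7 and Hoxb2 to Hoxb7 lie above 0, and those of Hoxa9, Hoxa10 and the HoxC genes below 0, in every population drawn.

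Rat cells of the chimera were next compared with the SD rat. In FAP-like cells the sum of all Hox genes was 104 against 87.4 CPM (log2 ratio 0.24, 0.17 to 0.32), and the posterior share was 53.9% (52.1 to 55.7) against 66.4% (64.7 to 68.1), a difference of -12.5 points (-15.0 to -10.1). Of 26 members tested, 9 were past 2-fold higher in the chimera, beside 3.03% of all 13734 genes, and 1 was lower, beside 3.6%. The median log2 ratio was 0.35 over members and 0.07 over all genes. Anterior members took 10.6% of Hox UMIs in the chimera rat and 5.16% in the SD rat.

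The members higher in chimera rat FAP-like cells were anterior and middle ones but for Hoxa13. Hoxb4 had 81 UMIs against 8 in the SD rat, 2.83 against 0.220 CPM, a 12.8-fold difference (log2 3.68, 2.64 to 4.94). Hoxb2, which patterns the hindbrain, had 149 against 24 UMIs, 5.20 against 0.660 CPM, or 7.88-fold (log2 2.98, 2.35 to 3.66). Hoxb3 had 32 against 7 UMIs (1.12 and 0.192 CPM, log2 2.54, 1.33 to 3.96), and Hoxb6 had 26 against 3 UMIs (0.907 and 0.0825 CPM, log2 3.46, 1.75 to 5.83). HoxB genes together stood at 10.7 CPM (9.51 to 11.9) in the chimera rat, 11.8 CPM in mouse and 1.29 CPM (0.95 to 1.72) in SD rat FAP-like cells. In mouse myeloid-like and T or NK-like cells they stood at 5.33 and 4.48 CPM, each on 4 UMIs.

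By cluster, HoxB stood at 7.03 to 20.3 CPM in the 4 chimera rat FAP-like clusters and at 0.587 to 2.71 CPM in the 5 SD rat ones. Clusters of the same library are not replicates, and cluster ranges of all genes were not compared. In chimera rat T or NK-like cells no HoxB UMI was counted, which allows 0.524 CPM, and B-like and myeloid-like cells had 2.09 and 0.914 CPM. In the SD rat T or NK-like and B-like cells had none, which allows 4.25 and 11.5 CPM, and myeloid-like cells had 2.23 CPM. The SD rat FAP-like level thus lay within the range of its immune-like cells. Chimera rat EC-like cells had 27 Hoxb2 against 54 Hoxb7 UMIs where FAP-like cells had 149 against 15. Whether free RNA from other cells added to the HoxB counts of FAP-like cells was not tested.

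Smaller differences in the same direction were seen for Hoxa7 (3.00 against 1.04 CPM, log2 1.52), Hoxa4 (1.57 against 0.550 CPM, log2 1.51), Hoxc5 (0.942 against 0.385 CPM, log2 1.29) and Hoxc4 (3.04 against 1.46 CPM, log2 1.06). Hoxc4 and Hoxc5 are known as forelimb-level genes. Hoxa13, of the distal limb, had 18 against 9 UMIs (log2 1.34, 0.11 to 2.68). Hoxc11, of the hindlimb and sacral level, was the 1 member past 2-fold lower, with 108 against 278 UMIs and 3.77 against 7.64 CPM (log2 -1.02, -1.35 to -0.69). Hoxc10 was at 6.35 against 10.3 CPM (log2 -0.70, -0.96 to -0.44), with 23 of the 374 SD rat UMIs in 1 cell.

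Chimera rat cells also had Hox UMIs on mouse genes, as the chimera tables hold genes of both species and the SD rat table rat genes alone. Over the 32 members with at least 20 UMIs in chimera rat cells when rat and mouse counts are added, the median share on the mouse gene was 18.5%, against 4.96% over 13634 gene names. It reached 81.8% for Hoxb8, 62.9% for Hoxc6, 50.6% for Hoxa5 and 45.8% for Hoxc11, and was 20.6% for Hoxb4 and 9.93% for Hoxb2. Whether these were rat transcripts or free mouse RNA was not tested. With rat and mouse counts of each name added, 8 of the 9 members stayed past 2-fold higher in FAP-like cells (Hoxa13 did not), Hoxa5, Hoxb7, Hoxc6 and Hoxc8 joined them, and Hoxc11 was no longer past 2-fold lower (log2 -0.40, -0.68 to -0.13). At a species threshold of 90% the count of members past 2-fold was 5 in place of 10.

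In MP-like cells the chimera rat level was lower in sum, at 79.4 against 142 CPM (log2 -0.83, -1.07 to -0.60, and -0.43 with both rows added), and the posterior share differed by -21.8 points (-28.9 to -14.5). Of 8 members tested, 3 were lower and 1 higher past 2-fold, beside 3.25% and 2.56% of 9757 genes. Hoxc11 had 28 UMIs in the chimera rat and 96 in the SD rat, 7.91 against 41.8 CPM, or 5.29-fold lower (log2 -2.40, -3.06 to -1.78). Hoxc10 was at 5.93 against 20.0 CPM (log2 -1.76, -2.57 to -0.98), and Hoxa9 at 9.04 against 18.3 CPM (log2 -1.02, -1.73 to -0.32). Hoxa10 and Hoxd8 were nearly level, at 11.9 against 11.8 CPM and 7.06 against 6.97 CPM. Hoxc8, of the brachial and thoracic level, had 18 against 3 UMIs (log2 1.96, 0.18 to 4.37).

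Mouse-row counts touched these values too, since 54.1% of Hoxc11 UMIs in chimera rat MP-like cells were counted on the mouse gene. With both rows added, Hoxc11 (log2 -1.43, -1.91 to -0.95) and Hoxc10 (-1.17, -1.84 to -0.50) were still past 2-fold lower, and Hoxa9 was not (-0.77). The chimera rat MP-like clusters had posterior shares of 53.8% and 65.0% and the SD rat ones 75.0% and 85.5%.

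**Figure D4:**
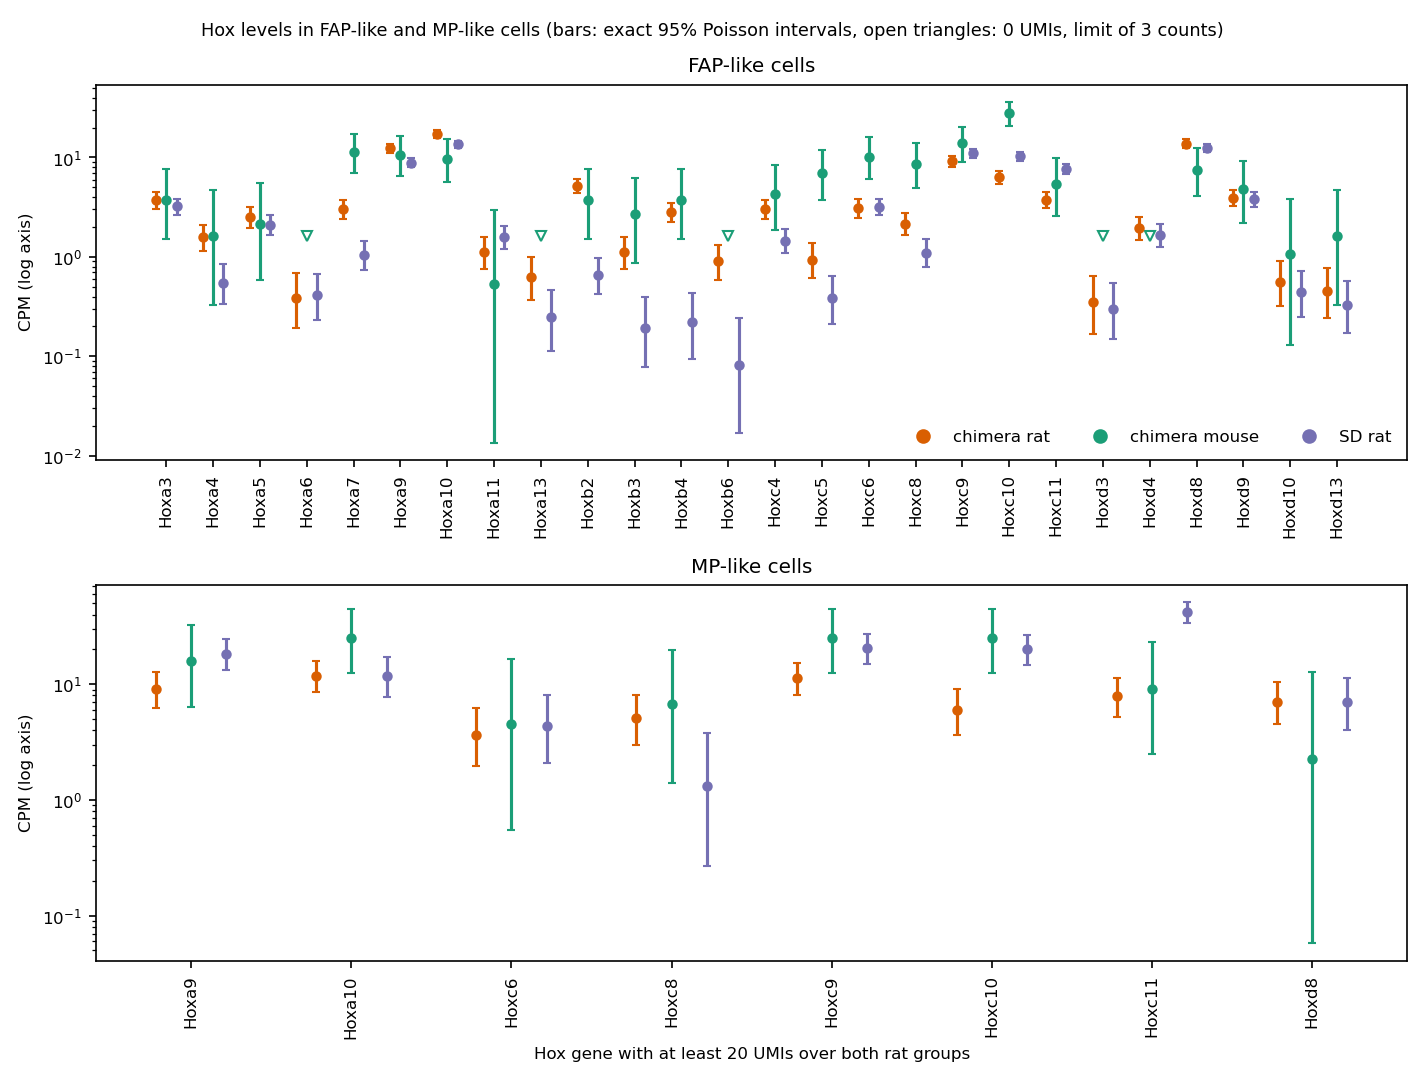
Level in CPM (log axis) of each Hox gene with at least 20 UMIs over both rat populations, in FAP-like cells (upper panel) and MP-like cells (lower panel), for chimera rat, chimera mouse and SD rat cells, with exact 95% Poisson intervals as bars and open triangles for the limit of 3 counts at 0 UMIs. In FAP-like cells Hoxb2, Hoxb3, Hoxb4 and Hoxb6 of the SD rat lie at 0.0825 to 0.660 CPM, below the chimera rat, and in MP-like cells Hoxc11 of the SD rat lies at 41.8 CPM, above the others.

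EC-like cells showed no member past 2-fold between the 2 rat populations, 0 higher and 0 lower of 15 tested, beside 5.09% and 4.81% of 10966 genes. The nearest were Hoxa3, with 51 against 123 UMIs and 13.3 against 26.5 CPM (log2 -0.99, -1.49 to -0.51), and Hoxb4, at 13.3 against 24.4 CPM (log2 -0.87, -1.38 to -0.38). Hoxb7 was at 14.1 against 8.2 CPM (log2 0.79, 0.16 to 1.42). With both rows added Hoxa3 passed 2-fold (log2 -1.06) and so did Hoxc9, whereas the Hoxa5 ratio moved from -0.60 to -0.03. The SD rat EC-like cells included 458 cells with a median of 1383.5 UMIs and a posterior share of 24.2%, and 434 cells with a median of 697 UMIs and 36.8%, both with hemoglobin genes among their leading genes. The posterior share of EC-like cells differed by -5.36 points (-8.92 to -1.63), and by -4.45 points with at least 1000 UMIs per cell. The difference had the other sign in LyEC-like cells, 7.98 points (0.372 to 15.5), and in pericyte-like cells, 7.27 points (-1.35 to 15.8). The pericyte-like interval included 0. A single chimera rat LyEC-like cell held 38 of the 292 Hox UMIs, and the LyEC-like difference without that cell was not computed.

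In tenocyte-like cells 2 of 13 members were past 2-fold higher in the chimera rat and 3 lower, beside 2.56% and 3.59% of 10639 genes. Hoxb4 was higher at 4.43 against 1.12 CPM (log2 1.99) and Hoxb2 at 7.71 against 2.24 CPM (log2 1.79), and Hoxc11 (1.74 against 8.05 CPM), Hoxc10 (3.86 against 8.5 CPM, not past 2-fold with both rows added) and Hoxa11 were lower. Hoxa11, which patterns the forearm and shin, had 1 UMI against 27 (log2 -4.97, -10.32 to -2.37), and 7 of the 27 were in 1 cell. Myocyte-like cells had 1 higher and 2 lower of 13, beside 1.4% and 9.58% of 8145 genes, and these were Hoxa4 (5.08 against 2.43 CPM, not past 2-fold with both rows added), Hoxc11 (2.97 against 12.5 CPM) and Hoxa13 (2.97 against 6.84 CPM).

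Pericyte-like cells had 0 higher and 1 lower of 7, beside 3.89% and 8.52% of 9169 genes, namely Hoxa5 at 5.43 against 15.5 CPM (log2 -1.51, and -0.31 with both rows added). LyEC-like cells had 0 higher and 2 lower of 7, beside 3.69% and 4.46% of 6999 genes. These were Hoxa3 at 7.09 against 28.5 CPM (log2 -2.01, -3.77 to -0.57) and Hoxb6 at 7.09 against 20.8 CPM, which did not pass with both rows added, while the leading Hoxd8, Hoxd9, Hoxd10, Hoxb7 and Hoxd4 were not past 2-fold. Cycling cells had 0 higher and 2 lower of 7, beside 2.6% and 4.02% of 9347 genes, Hoxc11 at 5.85 against 25.2 CPM and Hoxc10 at 11.7 against 26.4 CPM, which did not pass with both rows added. The 1 Schwann-like member with at least 20 UMIs was Hoxd8, which was not past 2-fold. Hoxc11 was thus lower in the chimera rat in FAP-like, tenocyte-like, MP-like, myocyte-like and cycling cells, comparisons that share the same pair of libraries.

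Mouse and rat cells of the chimera were compared within its 1 library, by gene name across species. Counts on the other species were uneven, with 23.6% of Hox UMIs of chimera rat cells on mouse genes and 2.95% of those of chimera mouse cells on rat genes. In EC-like cells the Hox sum was 265 CPM in mouse and 129 CPM in rat (log2 1.04, 0.89 to 1.18), and 9 of 18 members tested were past 2-fold higher in mouse and 0 lower, beside 18.3% and 19.6% of 10554 gene names. The median log2 ratio was 0.98 over members and -0.02 over all names. HoxB genes together stood at 145 CPM (137 to 154) in mouse, 47.1 CPM in chimera rat and 60.2 CPM in SD rat EC-like cells, and took 54.8%, 36.4% and 36.2% of Hox UMIs.

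Hoxb4 had 330 UMIs in mouse and 51 in rat EC-like cells of the chimera, 45.4 against 13.3 CPM (log2 1.77, 1.34 to 2.22). It was found in 21.3% of mouse and 6.38% of rat cells (5.39% and 1.37% after thinning), with 1.06% of mouse and 0% of rat T or NK-like cells as background. Hoxa7, a thoracic gene, had 199 against 31 UMIs, 27.4 against 8.11 CPM (log2 1.76, 1.2 to 2.35). Hoxb8 had 113 UMIs against 1, 15.6 against 0.262 CPM (log2 5.89, 3.39 to 11.21), but 87.5% of Hoxb8 UMIs in rat EC-like cells were counted on the mouse gene, and with both rows added the ratio was 3.01 (1.98 to 4.26). Hoxb5 was at 11.1 against 1.83 CPM, Hoxb6 at 15.1 against 4.45 CPM, Hoxb2 at 18.9 against 7.06 CPM and Hoxa2 at 5.23 against 1.57 CPM.

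With both rows added, Hoxa2, Hoxa7, Hoxb2, Hoxb4, Hoxb5 and Hoxb8 remained past 2-fold, and Hoxb3, Hoxb6 and Hoxb9 did not. The HoxD members of EC-like cells were near level, Hoxd8 at 16.9 against 14.6 CPM (log2 0.21) and Hoxd4 at 4.13 against 6.80 CPM (log2 -0.72). The 7 mouse EC-like clusters, which are not replicates, had 104 to 166 CPM of HoxB. The 3 chimera rat clusters had 28.1 to 49.3 CPM and the 4 SD rat clusters 15.8 to 73.0 CPM. The mouse cycling cells, with raised EC markers, had Hoxb4 at 56.2 CPM and a posterior share of 2.83%, and 1 cell held 65 of their 318 Hox UMIs.

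**Figure D5:**
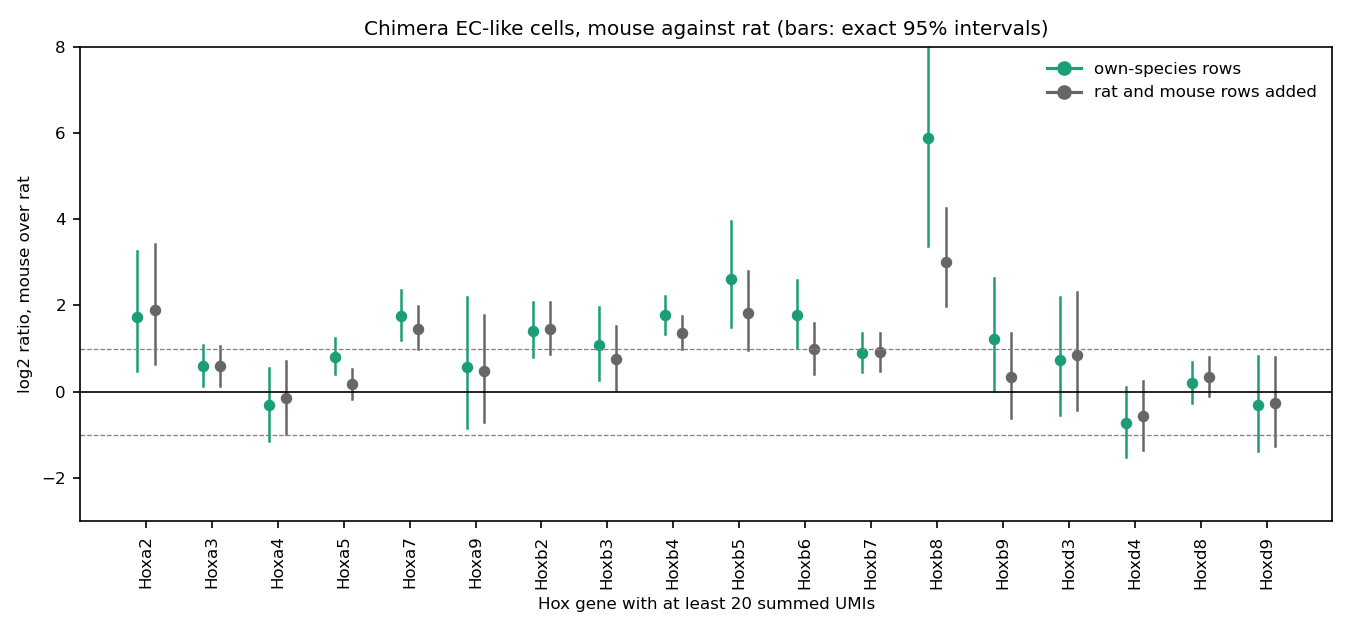
Log2 ratio of mouse over rat level (y axis, cut at 8) in EC-like cells of the chimera for each Hox gene with at least 20 summed UMIs (x axis), counted on genes of the cell's own species or with rat and mouse counts added, with exact 95% intervals as bars. Hoxb8 drops from 5.89 to 3.01 when the counts are added, Hoxb4 from 1.77 to 1.37, and Hoxd8 lies near 0 in both.

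Mouse FAP-like cells, 127 cells with 273 Hox UMIs, had a posterior share of 52.7% (46.6 to 58.8) against 53.9% in rat, a difference of -1.15 points (-7.51 to 5.17). Of 21 members tested 5 were past 2-fold higher in mouse, beside 21.0% of 11623 names, and 0 lower, beside 12.1%, so the count of higher members lay near the background. Hoxc10 had 52 UMIs in mouse and 182 in rat, 27.8 against 6.35 CPM (log2 2.13, 1.66 to 2.58), and was found in 28.3% of mouse FAP-like cells (4.03% after thinning). Hoxc5 was at 6.96 against 0.942 CPM (log2 2.89, 1.81 to 3.89), Hoxc8 at 8.57 against 2.16 CPM, Hoxa7 at 11.2 against 3.00 CPM and Hoxc6 at 10.2 against 3.07 CPM. All 5 kept the direction with both rows added, and Hoxc6 then missed 2-fold (log2 0.49, -0.24 to 1.15). HoxC genes took 53.1% of mouse, 27.5% of chimera rat and 40.1% of SD rat Hox UMIs in FAP-like cells, counted on genes of the cell's own species. These shares are not like for like. Over all chimera rat cells, 39.3% of Hoxc9 and 33.6% of Hoxc10 UMIs lay on the mouse gene, against 6.23% for Hoxa10 and 6.35% for Hoxd8. HoxC shares with both rows added were not computed. Hoxa10 was at 9.64 against 17.3 CPM (log2 -0.84, -1.61 to -0.17) and Hoxd8 at 7.50 against 13.8 CPM (log2 -0.88, -1.77 to -0.12).

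Mouse MP-like cells, 46 cells with 68 Hox UMIs, were led by Hoxc9, Hoxc10 and Hoxa10 at 25 CPM each. Of 7 members tested, Hoxc10 (25 against 5.93 CPM, log2 2.07, 0.87 to 3.19) and Hoxc9 (25 against 11.3 CPM, log2 1.14, 0.03 to 2.13) were past 2-fold higher, beside 16.3% of 8472 names, and 0 were lower, beside 12.8%. Each rested on 11 mouse UMIs, and Hoxc9 did not pass with both rows added. The sum was 154 against 79.4 CPM (log2 0.96, 0.55 to 1.35), and the posterior share of 69.1% (56.7 to 79.8) differed from 61.9% by 7.2 points (-6.43 to 19.4). Of 9 members tested in tenocyte-like cells, 3 were past 2-fold higher in mouse and 1 lower, beside 15.7% and 11.9% of 9073 names. Hoxc8, Hoxc9 and Hoxc10 were higher, at 14.9, 21.6 and 18.2 CPM against 2.70, 9.06 and 3.86 CPM (Hoxc9 not past 2-fold with both rows added), and Hoxd8 was lower with 3 UMIs against 124 (log2 -2.26, -4.56 to -0.68). Hoxc10 was thus past 2-fold higher in mouse than in chimera rat cells in all 3 of these classes, which share their library. The SD rat levels of Hoxc10 were 10.3 CPM in FAP-like, 20.0 CPM in MP-like and 8.5 CPM in tenocyte-like cells.

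Codes also varied inside classes. Clusters of EC-like cells with the venular markers Selp, Plvap and Ackr1 had Hoxd8, Hoxb7 and Hoxd4 as highest members in chimera rat, Hoxb4, Hoxb7 and Hoxd8 in mouse and Hoxb7, Hoxb4 and Hoxd4 in SD rat cells. HoxD stood at 44.6 CPM in 71 chimera rat cells, 43.0 CPM in 111 mouse cells and 47.9 CPM in 60 SD rat cells, against 26.9, 26.8 and 27.8 CPM over all EC-like cells. Their HoxA levels were 23.5, 49.3 and 27.4 CPM, against 51.8, 90.7 and 70.5 CPM over all of them. Among SD rat FAP-like clusters the posterior share ran from 45.5%, in 181 cells led by Apod and Myoc, to 68.2%, and among chimera rat FAP-like clusters from 49.4% to 57.8%.

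Anterior and posterior members occurred in the same cells. A posterior UMI was found in 49.8% (43.5 to 56.1) of chimera rat FAP-like cells with an anterior UMI and in 38.1% (36.1 to 40.1) of those without, and the cells with an anterior UMI were deeper (medians 11995 and 10524.5 UMIs). In the SD rat these shares were 46.9% (38.7 to 55.3) and 40.9%, with medians of 10300 and 10938.5 UMIs. Hoxc10 or Hoxc11, of the hindlimb level, were found in 14.8% (9.88 to 20.9) of 176 chimera rat FAP-like cells with a UMI of Hoxc4, Hoxc5 or Hoxc6, and in 8.90% of the others. In the SD rat the shares were 24.1% (17.8 to 31.3) of 166 cells and 14.3%. The cells with the more anterior HoxC genes were the deeper ones, with medians of 11534.5 against 10583 UMIs in the chimera rat and 12200 against 10852 UMIs in the SD rat, and thinned counts were too few to compare.

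Genes that act with or on Hox genes were counted from lists, and the share of all genes past 2-fold given above for each comparison is the background of each count. Of the 9 tested Pbx, Meis and Pknox genes, whose proteins bind DNA beside Hox proteins, 0 were past 2-fold between chimera rat and SD rat FAP-like cells, 0 of 7 in MP-like cells, and Meis1 and Meis2 were lower among 6 in EC-like cells. Between EC-like and FAP-like cells of the SD rat, 4 of 9 were lower (Meis1, Meis2, Meis3 and Pknox2) and 1 higher (Pknox1), beside 15.5% and 23.4% of all genes. Meis2 was at 1.31, 0.138 and 4.31 CPM in EC-like against 62.5, 72.8 and 56.3 CPM in FAP-like cells, and Meis1 at 2.35, 0 and 6.69 CPM against 30.1, 25.2 and 19.6 CPM. The cofactor Meis genes were thus low in the same class in which the posterior members were low.

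Chromatin regulators of Hox clusters include Polycomb and trithorax genes, which hold the clusters silent or active. They gave 0 higher and 1 lower (Ctcf, of neither group) of 16 in MP-like cells between the rat populations. Between mouse and rat, 2 of 15 were higher in MP-like cells (Kmt2a and Kdm6b) and 0 lower, and 1 of 17 was higher (Kdm6b) and 1 lower (Ezh2) in EC-like cells. Genes upstream of Hox clusters in the embryo gave 0 of 4 in FAP-like, 1 lower of 2 in MP-like (Rarg) and 0 of 4 in EC-like cells between the rat populations. The mouse against rat counts were 0 of 4 in FAP-like, 1 higher of 3 in MP-like (Rarb) and 2 lower of 4 in EC-like cells (Gdf11 and Rarb). Between EC-like and FAP-like cells the upstream genes gave Rarb higher in chimera rat and lower in mouse cells, and 0 in SD rat cells.

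Limb and regional identity genes gave 1 higher (Pax3) and 4 lower (Tcf21, Alx1, Tbx4 and Pitx1) of 17 in FAP-like cells of the chimera rat against the SD rat, beside 3.03% and 3.6% of all genes. Pitx1 and Tbx4, which specify the hindlimb, were at 0.872 against 1.90 CPM and 0.593 against 1.54 CPM, and Tbx5, of the forelimb, was at 0.384 against 0.357 CPM. In tenocyte-like cells Pitx1 was at 5.98 against 15.2 CPM and Tbx4 at 1.93 against 6.94 CPM. Hoxc11 was lower in both of these chimera rat classes too, though not past 2-fold in FAP-like cells with both rows added. Of the other posterior members, Hoxa9 and Hoxa10 stood higher in chimera rat FAP-like cells and Hoxc9 and Hoxc10 lower. Pitx1 and Tbx4 levels are given on rat genes alone. The share of each body region in the muscle pools is not given in the sources used here, and why these genes differed was not tested. In mouse against rat FAP-like cells En1, Tbx5 and Meox1 were higher and Pax3 lower of 13, with Tbx5 at 4.82 against 0.384 CPM. EC-like cells had 0 of 3 past 2-fold between rats, and 1 higher (Meox1) and 1 lower (Tbx15) of 3 between mouse and rat. In MP-like cells 1 of 6 was lower between rats, En1 at 5.93 against 20.0 CPM. In mouse against rat MP-like cells En1 was higher, at 43.1 CPM, and Tbx15 lower. EC-like cells had 6 of 12 lower than FAP-like cells in chimera rat, 3 of 5 in mouse and 7 of 14 in SD rat cells, among them Shox2, Tbx15 and En1 in each, and Meox1 higher in both rat populations. The 13 non-coding Hox transcripts on the lists were not analysed here.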

How the data were processed

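Single-cell RNA-seq counts were deposited by the authors as filtered 10x matrices made with Cell Ranger 7.1.0, per the submitters' processing notes, with rat (mRatBN7.2) and mouse (GRCm39) genes for the chimera and rat genes alone for the SD rat. Barcodes needed at least 500 UMIs and 200 detected genes, with a mitochondrial share (13 genes) of no more than 20%, and 444 predicted chimera and 164 SD rat doublets (3.65% and 1.83%) were left out. Each population was clustered without Hox genes (scanpy 1.11.5, leidenalg 0.10.2, 2000 variable genes, 30 components, 15 neighbours, resolution 1). Clusters took a name from at least 3 markers raised 2-fold, so class names are rebuilt ones, and 156 chimera rat, 114 chimera mouse and 0 SD rat cells stayed unnamed. UMIs were summed per class, and ratios have exact conditional intervals (SciPy 1.17.1) with zeros set at 3 counts. With 1 library per group no test was made. Named were the 5 highest members of a class in either group, and up to 10 further members past 2-fold with the largest ratios. The interval code was tested on simulated data. Members and lists were chosen with earlier results of these data known, and the EC-like against FAP-like comparison was added after seeing the data. Alternatives covered the UMI minimum, doublets, species threshold, rows counted, resolution, cell weighting, fold and minimum count. Some list genes, and the counts that include them, are not reported here.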

Additional observations from a re-analysis of the deposited data

How the results depend on the processing

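Under the 52 alternatives tried for posterior share differences and the 52 for summed ratios, the sign turned once, for the posterior share of mouse against rat FAP-like cells (-1.15 points, 1.88 at the 90% species threshold), whose interval includes 0, and 56 of 79 counts of members past 2-fold stayed within 1.5 times. With at least 100 summed UMIs the counts were 4 in place of 10 (FAP-like) and 1 in place of 4 (MP-like) for chimera rat against SD rat, then 3 in place of 5 (FAP-like), 0 in place of 2 (MP-like) and 5 in place of 9 (EC-like) for mouse against rat, and 9 in place of 16, 9 in place of 19 and 10 in place of 16 for EC-like against FAP-like cells of chimera rat, chimera mouse and SD rat, since fewer members were tested. The EC-like count between rats, 0, became 2 with at least 1000 UMIs per cell, 3 with doublets kept, 4 at the 90% species threshold, 2 with both rows added, 1 at resolution 0.5, 2 with cells weighted equally, 4 at 1.5-fold and 1 with a minimum of 1 UMI. The MP-like count between mouse and rat, 2, became 1 with doublets kept, with both rows added and at resolution 0.5, and 4 with cells weighted equally and with a minimum of 1 UMI. At 90%, which kept 498 rat FAP-like, 224 MP-like and 52 EC-like cells, the FAP-like count between rats was 5 and the EC-like against FAP-like count in chimera rat cells 4. The posterior share differences then were -0.474 points (EC-like, between rats), -9.59 points (EC-like, mouse against rat) and -38.6 points (EC-like against FAP-like, chimera rat). At resolution 0.5 the MP-like difference between rats was -29.8 points, over 91 chimera rat cells. Of the summed ratios 14 moved outside their interval, among them, with both rows added, those between rats (0.46 for 0.24 in FAP-like, -0.43 for -0.83 in MP-like and -0.18 for -0.36 in EC-like cells) and of mouse against rat (0.27 for 0.50, 0.54 for 0.96 and 0.81 for 1.04). Other causes of these shifts were not tested. The alternatives for EC-like against FAP-like cells were chosen after seeing the data. No paired analysis was possible because each group has 1 library.

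Depth limits the low members, of which many rest on under 20 UMIs in a class, and the mouse FAP-like and MP-like codes, which rest on 273 and 68 Hox UMIs. The summed Hox level was 18.0 to 28.4 CPM in SD rat immune-like cells and 5.41 to 8.88 CPM in chimera rat ones, and how much of it was free RNA was not tested.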
